A study of Mus musculus with 6 samples.

Results

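Hyaluronan is a long sugar polymer of the extracellular matrix, and 10 mouse genes that make it, cut it or bind it are described here in tissue labelled as infarcted cortex after stroke. They were taken by gene symbol from a table of 56748 genes, and each symbol matched 1 gene. The list holds the synthases Has1, Has2 and Has3, the hyaluronidases Hyal1 and Hyal2, the receptor gene Cd44, the hyaluronan-binding protein gene Tnfaip6 and the heavy-chain genes Itih2, Itih3 and Itih5. It was drawn up with values of the treatment comparison already known, so the differences between treatments below are descriptions of these genes and not independent evidence.

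RNA was sequenced from brains of male wild-type C57 mice in 2 groups of 3 libraries. All mice carried a photothrombotic stroke in the left hemisphere, made by a light-activated agent given into a vein (100 mg/kg, not named in the labels) and a 532 nm laser of 250 mW and 1.5 mm width for 5 minutes. The saline group then received 100 µL of saline and the PLEA group 100 µL of PLEA nanoparticles into the tail vein 2 hours after the clot. Both groups are labelled day 3. PLEA is not spelled out in the labels, and brain without a stroke was not analysed here. A change in tissue RNA can come from fewer cells of a type or from less RNA per cell, and bulk libraries cannot tell these apart.

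Hyaluronan synthases sit in the cell membrane, join sugar precursors into the chain and push it out of the cell as it grows. Hyaluronidases cut the chain, and receptors such as CD44 tether it or take it up. In inflamed tissue the protein TSG-6, encoded by Tnfaip6, moves heavy chains of the inter-alpha-inhibitor family onto hyaluronan, which links chains into a firmer matrix. In brain, hyaluronan is the backbone of the matrix around neurons, and its turnover is known to change after injury.

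Libraries held 16810448 to 17516434 counts, and their totals did not separate the groups. Markers of neurons were present throughout, with 6 of 6 measured and a summed level of 5564 to 7194 CPM (each library's counts scaled to a common total with TMM factors). Striatal markers, which cortex should hold at low level, ranged from 87.6 CPM in saline replicate 2 to 1225 CPM in PLEA replicate 2, with both groups spread widely. Saline replicate 1 had the highest summed level of astrocyte, microglia, and monocyte and macrophage markers. In PLEA replicate 3 the choroid plexus marker Ttr had 5020 counts, against 1 to 98 in the other libraries.

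Of the 10 genes, 9 passed the filter on low counts and 0 were called by edgeR's quasi-likelihood test (Benjamini-Hochberg adjusted p under 0.05 over 17584 genes). The same test called 0 genes higher and 0 lower in the whole table, so the share called was 0% in each direction. At an unadjusted p under 0.05, 1 of the 9 was lower and 0 were higher in PLEA, where 3.58% of all tested genes were lower and 2.28% higher. DESeq2 gave an adjusted p for the same 9 genes and called 1 lower and 0 higher, against 0.211% and 0.0114% of the genes it tested. That gene was Itih2 in each case. The median log2 fold change of the 9 genes was -0.03, with 4 positive and 5 negative, and that of all tested genes was -0.0051.

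**Figure D1:**
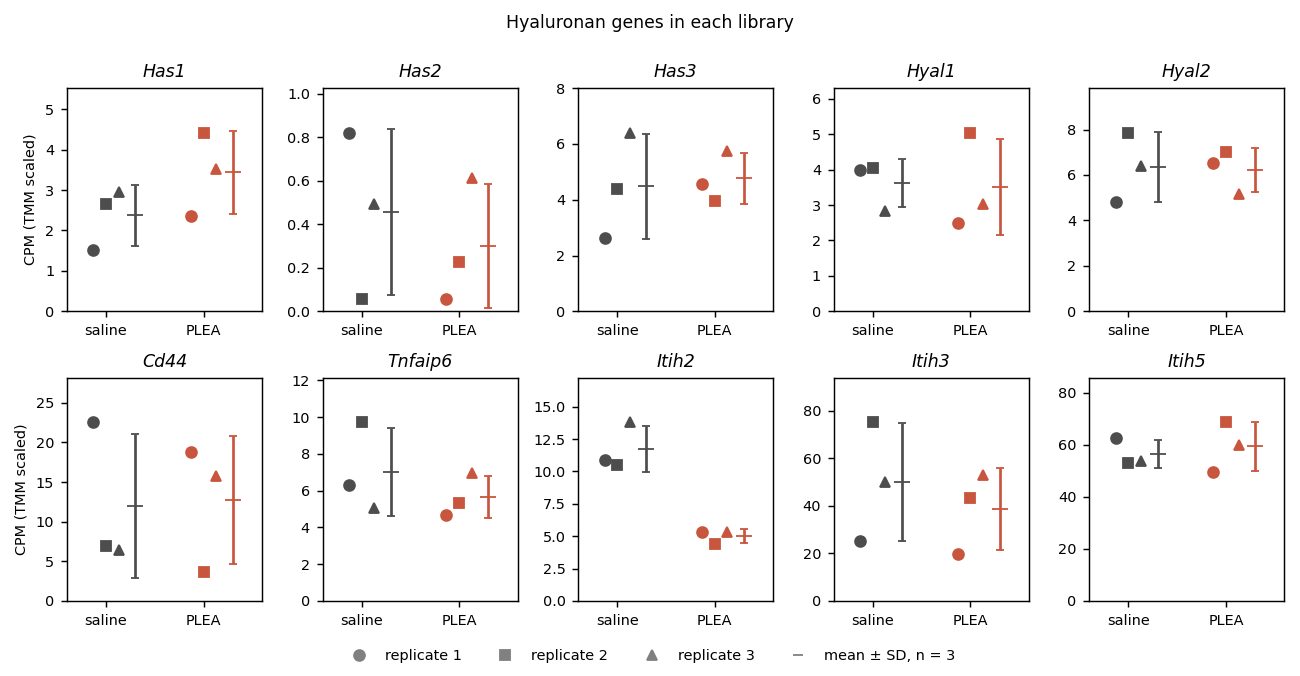
Level of each of the 10 genes in every library, in CPM on an axis from 0 that differs between panels; circles, squares and triangles are replicates 1, 2 and 3, and bars are the mean ± SD of 3 libraries. Itih2 is the gene whose PLEA libraries (4.42 to 5.32 CPM) all lie below the saline libraries (10.5 to 13.8 CPM), and in the other 9 panels the groups overlap.

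The synthase genes were low. Has1, which makes hyaluronan at the cell surface, had 26, 46 and 48 counts in saline replicates 1 to 3 and 41, 78 and 63 counts in PLEA replicates 1 to 3. PLEA replicates 2 and 3 were the highest libraries, but PLEA replicate 1 lay below saline replicates 2 and 3, so the groups overlapped. The log2 fold change of Has1 was 0.53 (SE 0.35, 95% interval -0.28 to 1.34, edgeR adjusted p = 0.842), and it was 0.30 without saline replicate 1. These counts are small enough that counting alone gives an error of 14.1% at the mean of 6 libraries.

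Has3, another synthase, had 45, 76 and 104 counts in saline and 79, 70 and 103 counts in PLEA. The spread within saline, from 2.64 to 6.40 CPM, held all 3 PLEA libraries. Its log2 fold change was 0.09 (SE 0.34), with a 95% interval of -0.69 to 0.87 that leaves changes in both directions possible. Without saline replicate 1 it was -0.17.

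Has2, the synthase that is essential for hyaluronan in the embryo, was near the limit of detection. It had 14, 1 and 8 counts in saline and 1, 4 and 11 counts in PLEA, and it did not pass the filter. Each group held a library with a single count and a library with more than 10, so no difference was detectable at this depth. The span of Has2 in the deposited table overlaps the opposite-strand gene Has2os over 4596 bases. Reads of Has2os (1 to 7 counts) cannot be told apart from those of Has2 if counting ignored strand.

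The hyaluronidase genes did not separate the groups. Hyal2, whose product is anchored at the cell surface and makes the first cuts in long chains, had 82, 136 and 104 counts in saline and 113, 124 and 92 counts in PLEA. The lowest and the highest library were both saline. Hyal2 had a log2 fold change of -0.03 (SE 0.25, 95% interval -0.60 to 0.54). The antisense gene Gm9917 overlaps 471 bases of Hyal2 and had 29 to 47 counts.

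Hyal1, which degrades hyaluronan fragments in lysosomes, had 68, 70 and 46 counts in saline and 43, 89 and 54 counts in PLEA. PLEA held both the lowest and the highest library. The log2 fold change was -0.04 (SE 0.33, 95% interval -0.80 to 0.71), and without PLEA replicate 2 it was -0.40. Hyal1 lies 4147 bases from Hyal2 on the same strand of chromosome 9. Its span overlaps Naa80 over 2824 bases and Hyal3 over 893 bases on that strand, and the counting rule for shared reads is not given in the sources used here, so its counts are uncertain.

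Cd44 encodes the main cell surface receptor for hyaluronan, carried by leukocytes and reactive glia among other cells. It had 384, 120 and 105 counts in saline and 325, 64 and 283 counts in PLEA. Saline replicate 1, PLEA replicate 1 and PLEA replicate 3 were high (15.8 to 22.5 CPM), and the other libraries were low (3.63 to 6.94 CPM). The high and the low set each held libraries of both treatments, and the highest level was 6.21 times the lowest. Cd44 averaged 12.0 ± 9.14 CPM (SD, n = 3) under saline, and its PLEA average was 12.7 ± 8.03 CPM (SD, n = 3). The log2 fold change of 0.09 (SE 0.64) had a 95% interval of -1.37 to 1.55, and without saline replicate 1 the estimate was 0.94 (edgeR adjusted p = 0.863).

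Markers of myeloid cells and astrocytes followed the libraries of Cd44 only in part. Cd68, a lysosomal protein of macrophages and microglia, had 1158, 191 and 248 counts in saline and 619, 223 and 389 counts in PLEA. Gfap, the intermediate filament of reactive astrocytes, had 28690, 6701 and 5811 counts in saline and 8453, 1915 and 8158 counts in PLEA. Saline replicate 1, PLEA replicate 1 and PLEA replicate 3 were the 3 highest libraries for Cd68 and Gfap, as for Cd44. The lysozyme gene Lyz2, the other most abundant macrophage marker, had 1386, 163 and 261 counts in saline and 290, 69 and 137 in PLEA, with PLEA replicate 3 below saline replicate 3. Slc1a2, an astrocyte glutamate transporter, also had PLEA replicate 3 below saline replicate 3, with 41380 against 44337 counts. In the monocyte and macrophage list, which includes Lyz2, the summed level of PLEA replicate 3 lay below that of saline replicate 3 (43.3 against 46.2 CPM). The same held for the astrocyte list, which includes Slc1a2 (4003 against 4463 CPM). The 7 monocyte and macrophage markers summed to 29.1 to 194 CPM in saline and 22.0 to 71.7 CPM in PLEA, with 4 of them tested and all 4 negative in log2 fold change. None of the 7 was at 0 in every library, and their part in the level of Cd44 was not tested.

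Tnfaip6 encodes TSG-6, a secreted protein induced by inflammatory cytokines. It had 107, 168 and 82 counts in saline and 81, 94 and 124 counts in PLEA. Saline replicate 2 was the highest library and the rest lay between 4.68 and 6.93 CPM in no order of treatment. The log2 fold change was -0.31 (SE 0.29, 95% interval -0.98 to 0.36, edgeR adjusted p = 0.870), and without saline replicate 2 it was -0.0106.

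Itih2 was the gene of the list that differed most between the treatments. It encodes heavy chain 2 of the inter-alpha-inhibitor family, a chain that TSG-6 can transfer to hyaluronan. Saline replicates 1 to 3 held 185, 182 and 224 counts, and PLEA replicates 1 to 3 held 92, 78 and 95 counts. Every PLEA library was below every saline library, with 4.42 CPM as the lowest level in PLEA and 10.5 CPM as the lowest in saline.

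Saline libraries averaged 11.7 ± 1.80 CPM of Itih2 (SD, n = 3). PLEA libraries averaged 5.02 ± 0.516 CPM (SD, n = 3), and the fitted level was 2.33 times lower. This is a log2 fold change of -1.22 (SE 0.20, 95% interval -1.68 to -0.76). Its unadjusted edgeR p of 0.000246 was the 7th smallest in the table, but over all genes the edgeR adjusted p was 0.617. DESeq2 estimated -1.23 on the log2 scale (SE 0.24) with an adjusted p of 0.0012. Without the filter on low counts the edgeR adjusted p was 0.0373, so whether Itih2 is called depends on the tool and on the filter. Leaving out 1 library at a time gave -1.30 to -1.10. Groups did not overlap in that direction for 5.54% of all tested genes and for 1 of the 9 tested genes here.

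Beside the lower level of Itih2, the genes of several marker lists had negative log2 fold changes. Among all 17584 tested genes, 8963 were negative. All 10 markers of the meninges and perivascular fibroblasts were measured, 10 of 10 had a negative log2 fold change (median -1.44), and none was at 0 in any library. They summed to 127 to 179 CPM in saline and 54.3 to 77.3 CPM in PLEA. The collagen genes Col1a2 and Col1a1, the most abundant of them, stood at -1.05 (SE 0.22) and -1.45 (SE 0.35) on that scale. Part of this list was picked with its earlier values known. Mural cell markers, 5 of 5 tested negative, summed to 222 to 340 CPM in saline and 176 to 213 CPM in PLEA. These sums did not overlap, but gene by gene the groups were apart for only 1 of the 5. Among all tested genes 5.54% were apart in that direction. Endothelial markers, 6 of 6 negative with a median of -0.55, summed to 175 to 279.6 CPM in saline and 120.5 to 177 CPM in PLEA, overlapping narrowly. Astrocyte markers were negative in 8 of 8 and oligodendrocyte markers in 6 of 6, with summed levels that overlapped between the groups. Microglia markers were negative in 6 of 6, and their sums overlapped too. Not all lists went this way. Striatal markers were positive in 6 of 6 (median 0.62) and choroid plexus markers in 3 of 4 tested (median 1.29). Red blood cell markers were positive in 2 of 3 tested and neuron markers in 2 of 6 (median -0.01). The part of any of these lists in the level of Itih2 was not tested.

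**Figure D2:**
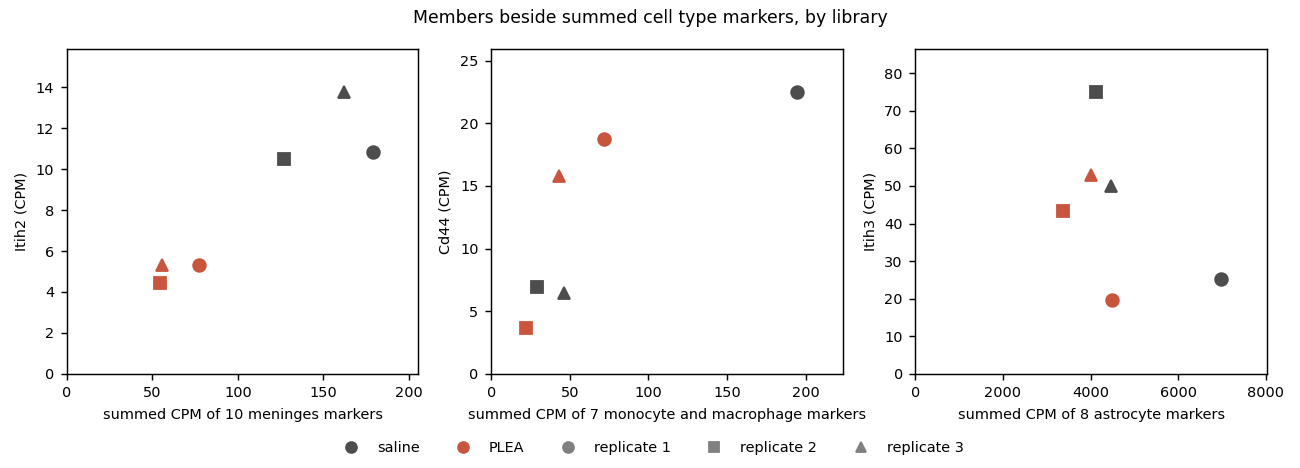
Levels of Itih2, Cd44 and Itih3 (CPM, vertical axes from 0) against the summed CPM of a marker list in the same library (horizontal axes from 0), with grey for saline, red for PLEA and the marker shape for the replicate. In the left panel the PLEA libraries lie low on both axes and the saline libraries high on both. Both the gene list and part of the meninges list were picked with earlier values known, so this panel is a description. In the middle panel saline replicate 1 is far to the right at 194 CPM. In the right panel saline replicate 1 is highest in astrocyte markers (6978 CPM) and low in Itih3 (25.3 CPM).

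Itih5, a further member of the heavy-chain family, lies next to Itih2 in the genome and did not share its difference. In the deposited table Itih2 spans bases 10099404 to 10136207 of chromosome 2 on the minus strand and Itih5 bases 10158382 to 10261340 on the plus strand, a gap of 22174 bases with the genes pointing away from each other. Itih5 had 1071, 917 and 876 counts in saline and 860, 1212 and 1072 counts in PLEA. The lowest and the highest library were both PLEA, and the whole range was narrow, at 49.7 to 68.7 CPM. Its log2 fold change was 0.07 (SE 0.15, 95% interval -0.26 to 0.41). Within each library the ratio of Itih2 to Itih5 counts was 0.173, 0.198 and 0.256 in saline and 0.107, 0.0644 and 0.0886 in PLEA, with no overlap. Because Itih5 varied little, this ratio mainly restates the difference in Itih2. Taken over Itih3 instead, the ratios of the groups overlapped, as PLEA replicate 1 (0.269) lay above saline replicate 2 (0.140).

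The stretches before the start sites of these neighbours are shown with that of Tnfaip6, the gene for the protein that transfers heavy chains, because they are the members whose matrix roles are coupled or whose levels part. They come from RefSeq on GRCm38.p6, run 5′ to 3′ on the strand of the gene, and stop before any exon of the gene in GENCODE M21. Capitals mark TGANTCA, the AP-1 motif, searched on both strands.
Itih2, chr2:10130684-10130933, minus strand: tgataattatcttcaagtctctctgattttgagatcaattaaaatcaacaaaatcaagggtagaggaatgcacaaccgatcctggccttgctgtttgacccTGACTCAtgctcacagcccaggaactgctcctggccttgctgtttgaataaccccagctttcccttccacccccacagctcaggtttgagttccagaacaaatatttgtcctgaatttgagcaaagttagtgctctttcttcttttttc
Itih5, chr2:10153293-10153542, plus strand: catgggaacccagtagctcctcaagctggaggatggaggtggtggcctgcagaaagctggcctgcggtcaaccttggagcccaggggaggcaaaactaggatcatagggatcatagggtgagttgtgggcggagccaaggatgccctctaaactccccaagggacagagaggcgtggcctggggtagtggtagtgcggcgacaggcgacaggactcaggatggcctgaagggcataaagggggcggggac
Tnfaip6, chr2:52037863-52038008, plus strand: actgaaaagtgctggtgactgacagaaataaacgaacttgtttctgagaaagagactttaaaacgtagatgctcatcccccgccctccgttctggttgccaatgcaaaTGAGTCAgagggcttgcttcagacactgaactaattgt

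RefSeq held such a stretch for 8 of the 10 genes. In the 250 bases before the start site, the AP-1 letters were found in Itih2 and Tnfaip6, and 6.75% of 32851 mouse promoters of the same length hold them. The cyclic AMP response element TGACGTCA, searched on both strands, was found in Has1 and stands in 1.55% of promoters. The Itih2 stretch has 1 CpG dinucleotide and a GC content of 43.2%, whereas the Itih5 stretch has 7 and 61.2%. At least 1 CpG stands in 92.1% of promoters and at least 7 in 46.3%. These matches describe letters only, and no binding was measured.

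Itih3, which pairs with bikunin in pre-alpha-inhibitor, was the most variable heavy-chain gene. It had 431, 1299 and 812 counts in saline and 342, 763 and 948 counts in PLEA. Replicate 1 was the lowest library in both groups, at 25.3 CPM in saline and 19.8 CPM in PLEA, and the others lay between 43.2 and 75.1 CPM. Itih3 had a log2 fold change of -0.37 (SE 0.43, 95% interval -1.36 to 0.61), and without saline replicate 2 it was 0.04. Counting error at the mean was 3.61%, far below the spread of 49.7% between saline libraries.

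Transcripts of the usual partners of these heavy chains were close to absent, and protein was not measured here. Ambp, which encodes bikunin, the light chain, had 1, 0 and 0 counts in saline and 0, 2 and 0 in PLEA. Itih1, whose product pairs with that of Itih2 in plasma inter-alpha-inhibitor, had 0, 0 and 1 counts in saline and 0, 0 and 0 in PLEA. A count of 0 in 1 library allows up to 3 counts, or 0.168 to 0.185 CPM, for counting error only. Itih4, another gene of the chromosome 14 cluster that holds Itih1 and Itih3, had 6, 1 and 3 counts in saline and 0, 11 and 16 in PLEA. Ambp, Itih1 and Itih4 were chosen for naming after their values were seen.

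Divided by gene length, the levels of the 10 genes ran from 12.2 CPM per kilobase for Itih3 to 0.0893 CPM per kilobase for Has2, as means of 6 libraries. Itih5 followed at 7.34, Tnfaip6 at 3.70, Itih2 at 2.52, Hyal2 at 1.91 and Cd44 at 1.82 CPM per kilobase. Hyal1 was at 0.945, Has3 at 0.724 and Has1 at 0.644 CPM per kilobase. Neighbours in this order overlapped across libraries except at 2 steps, from Itih5 down to Tnfaip6 and from Has1 down to Has2. By group mean, Itih2 stood above Hyal2 and Cd44 in saline (3.54 against 1.93 and 1.77 CPM per kilobase). In PLEA its mean stood below both (1.51 against 1.89 and 1.88 CPM per kilobase). This order of means did not hold in every library. Cd44 stood above Itih2 in saline replicate 1. Itih2 stood above Cd44 in PLEA replicate 2 and above Hyal2 in PLEA replicate 3. The comparison between genes assumes reads spread evenly along each gene.

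**Figure D3:**
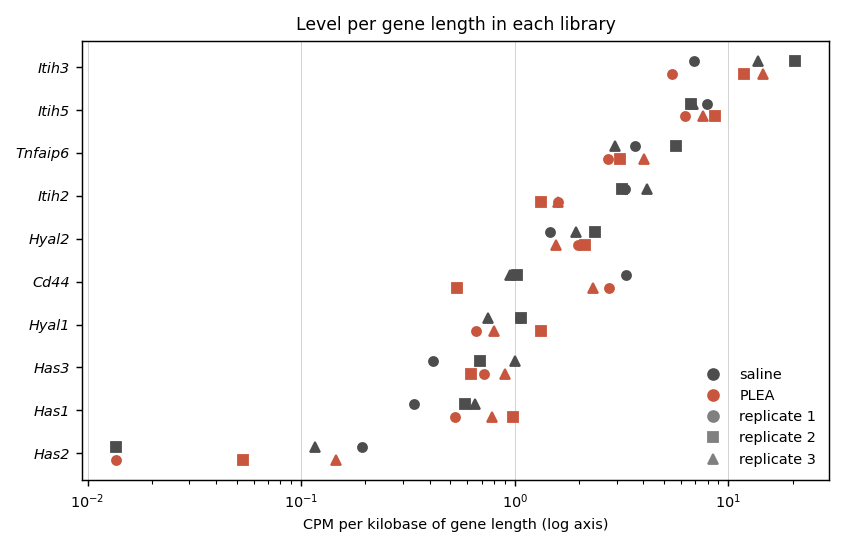
Level of each gene per kilobase of gene length (CPM per kilobase, log axis) in every library, ordered by the mean of 6 libraries, with grey for saline, red for PLEA and the marker shape for the replicate. Heavy-chain genes Itih3 and Itih5 lead, the 3 synthases are lowest, and Has2 stands apart at 0.0136 to 0.194 CPM per kilobase.

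No single library was lowest or highest for most of the genes. PLEA replicate 1 was the lowest library for 5 of the 10 genes and the highest for 0. Saline replicate 1 was the lowest for Has1, Has3 and Hyal2 and the highest for Has2 and Cd44. When 1 library was left out, the log2 fold change kept its sign for Has1, Tnfaip6 and Itih2 and turned for Has3, Hyal1, Hyal2, Cd44, Itih3 and Itih5.

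**Figure D4:**
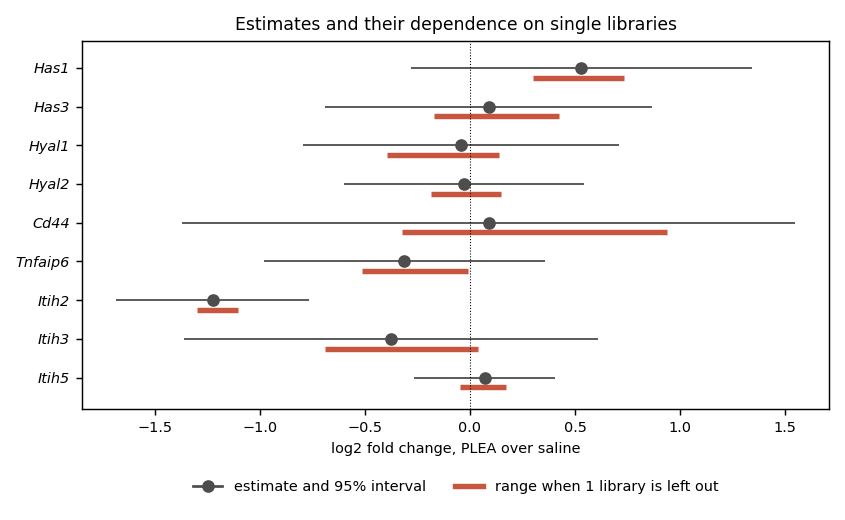
Log2 fold change of PLEA over saline for the 9 tested genes, with the 95% interval from edgeR as a thin grey line and the range over fits that leave out 1 library as a red bar. The interval for Itih2 (-1.68 to -0.76) lies below 0, and the other 8 intervals span 0.

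The wider pathway was read from 36 further genes found in the table, of which 27 were tested. None was called by edgeR in either direction, 10 had a positive and 17 a negative log2 fold change, and the median was -0.13. At an unadjusted edgeR p under 0.05, 1 was lower and 0 were higher, where 3.58% of all tested genes were lower and 2.28% higher. DESeq2 called 0, against 0.211% lower and 0.0114% higher among all genes it tested.

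Genes that supply the sugar precursors showed small differences. Of the 6 tested, 2 were positive and 4 negative, with a median log2 fold change of -0.09. Ugp2, which makes UDP-glucose, the source of UDP-glucuronic acid, had -0.37 (SE 0.20). Gfpt2, of the hexosamine route to UDP-N-acetylglucosamine, had -0.22 (SE 0.21), and Pgm3 of the same route had 0.16 (SE 0.18). Ugdh, the enzyme that makes UDP-glucuronic acid itself, had 373 to 504 counts in saline and 367 to 454 in PLEA, and it was chosen after its values were seen.

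Among the other genes of breakdown, 5 were tested, 2 positive and 3 negative, with a median of -0.12. The lysosomal enzyme genes Gusb and Hexa, which trim sugars from fragments, stood at log2 fold changes of -0.38 (SE 0.48) for Gusb and -0.37 (SE 0.32) for Hexa. Gusb had 814, 308 and 239 counts in saline and 534, 208 and 338 in PLEA, so saline replicate 1 was the highest library, and without it the value turned to 0.34. Hexa was at -0.0125 without that library. Cemip2, a cell surface protein of hyaluronan turnover, had -0.12 (SE 0.13). The hyaluronidase genes Hyal4, Hyal5 and Spam1, likewise named after their values were seen, had 0 counts in all 6 libraries.

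All 7 of the other receptor genes were tested, 2 positive and 5 negative, with a median of -0.52. Tlr4 and Tlr2, innate immune receptors that also answer to hyaluronan fragments, stood at log2 fold changes of -0.89 (SE 0.42) for Tlr4 and -0.60 (SE 0.65) for Tlr2. Hmmr, a hyaluronan-binding protein of dividing cells, had -1.07 (SE 0.81), from 120, 28 and 23 counts in saline and 60, 12 and 12 in PLEA. Replicate 1 was the highest library in both groups for Tlr2 and Hmmr, and without saline replicate 1 Tlr2 was at 0.64, Hmmr at 0.09 and Tlr4 at -0.36. Microglia markers, 6 of 6 negative and none at 0, summed to 195 to 604 CPM in saline and 103 to 305 CPM in PLEA, and their part in these values was not tested.

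Of the other secreted binders, 9 were tested, 4 positive and 5 negative, with a median of -0.06. Hapln1, a link protein that pins proteoglycans to hyaluronan, had 519, 538 and 363 counts in saline and 363, 279 and 375 in PLEA, and scaled levels of the groups did not overlap. Its log2 fold change was -0.54 (SE 0.18, edgeR adjusted p = 0.818), and it was the 1 gene of the wider list with an unadjusted p under 0.05. Hapln3, another link protein, had 11 to 17 counts in saline and 24 to 28 in PLEA (log2 fold change 0.76, SE 0.34). Bcan, which encodes the brain proteoglycan brevican, had -0.21 (SE 0.11). Of the 27 tested genes of the wider list, the groups did not overlap for 1 upwards in PLEA (Hapln3) and 2 downwards (Bcan and Hapln1). Among all tested genes the shares were 5.16% upwards and 5.54% downwards. These 3 genes were named for the smallest p in their role.

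**Figure D5:**
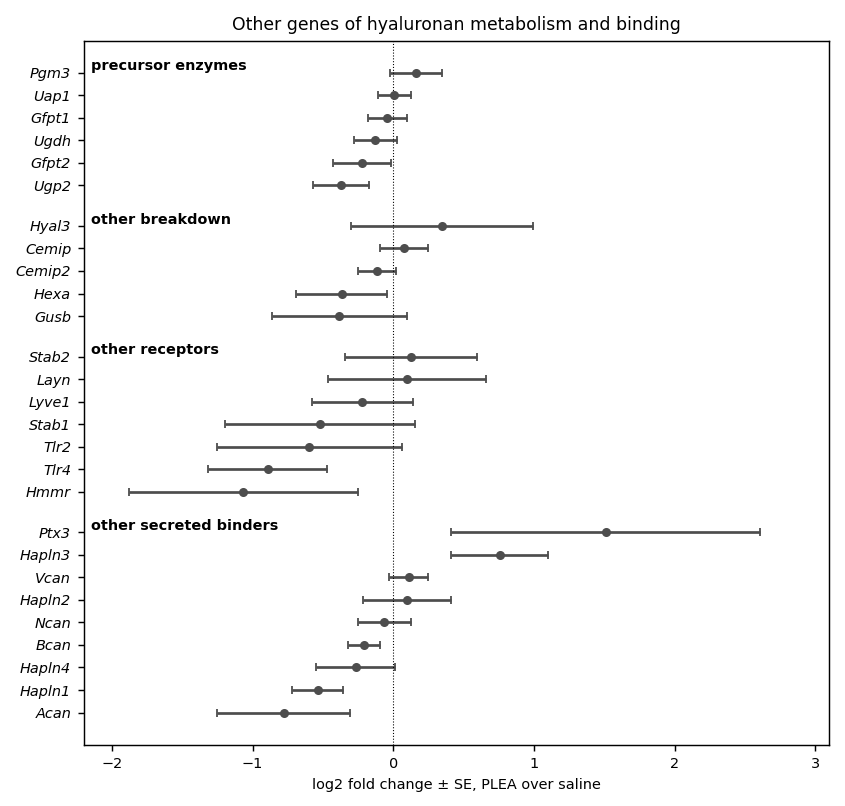
Log2 fold change of PLEA over saline with its SE for the 27 tested genes of the wider pathway, grouped by role. Values lie on both sides of 0 in every group, receptors reach down to -1.07 (Hmmr), and Ptx3 at 1.51 has the widest error among the secreted binders.

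Ptx3 encodes a pentraxin that joins heavy chains in the hyaluronan matrix. It had 14, 17 and 4 counts in saline and 14, 1 and 90 counts in PLEA, so its positive value came from PLEA replicate 3, and it is named here after its values were seen. That library also held the 5020 counts of Ttr. The part of choroid plexus RNA in the Ptx3 value was not tested.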

How the data were processed

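The authors deposited raw read counts per gene for 6 libraries, with gene length in bases as another column (other), per the file headers. Which aligner and counter were used, and whether strand was used, is not given in the sources used here. GRCm38 and mm10 are named in the submitters' processing notes, but only 1487 of 52088 genes shared with GENCODE M21 (2.85%), and 0 of the 10 members, had the same coordinates, so positions from the table carry no build. Whether replicates are separate animals is not stated, and p-values then cover only the spread of these samples, possibly technical. Counts of each pair of libraries differed by more than sampling noise (chi-square per degree of freedom 13.1 or more).

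The test was edgeR's quasi-likelihood F test (edgeR 4.0.16, R 4.3.3, filterByExpr, TMM factors, Benjamini-Hochberg over 17584 genes, threshold 0.05). Each edgeR SE is the absolute log2 fold change over the root of its F statistic, and the DESeq2 SE is the one DESeq2 reports. Alternatives were DESeq2 1.42.0, RLE factors, other filters, a replicate block and leaving out libraries. The procedure was tested on simulated data. A gene of the wider list and of the microglia markers is not reported here. Members and lists were chosen with earlier results of these data known. Named were all members and, per role of the wider list, up to 3 genes with the smallest p. Of each marker list the 2 most abundant genes could be named, with genes overlapping a member, and any other is said to be chosen after its values were seen.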

Additional observations from a re-analysis of the deposited data

How the results depend on the processing

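Counts of genes called higher and lower by edgeR, 0 and 0, became 2 and 37 with DESeq2 and 7 and 31 without the filter on low counts. Fits without 1 library called 0 genes higher and from 0 to 1 lower. Without both saline replicates 1 and 2, an alternative chosen after seeing the data, 0 were higher and 2 lower. Of the hyaluronan genes, 1 was called lower with DESeq2 and 1 without the filter (Itih2, adjusted p = 0.0012 and 0.0373), and 0 under every other alternative, where the adjusted p of Itih2 ranged up to 0.9997. The cause was not tested. Itih2 stayed negative in all 12 alternatives (-1.45 to -1.10). Other estimates turned sign when 1 library was left out. Over those fits Has3 ranged from -0.17 to 0.43, Hyal1 from -0.40 to 0.14, Hyal2 from -0.19 to 0.15, Cd44 from -0.32 to 0.94, Itih3 from -0.69 to 0.038, Itih5 from -0.046 to 0.17, Gusb from -0.82 to 0.34, Hmmr from -2.33 to 0.089 and Tlr2 from -1.05 to 0.64. Against saline replicate 3 alone, which assumes that this sample varies like the PLEA libraries, values turned to -0.42 for Has3, 0.32 for Hyal1, 0.17 for Tnfaip6, 0.49 for Gusb, 0.19 for Hmmr and 0.84 for Tlr2. With the replicate block 0 genes were higher and 0 lower, and Itih2 was at -1.22 (adjusted p = 0.248). Whether same-numbered libraries are paired is not stated. The correlations of their deviations from the group means were 0.373, 0.173 and -0.0176, and not every library correlated best with its own number. With 3 libraries per group these values cannot decide it. RLE factors and the stricter CPM filter turned no sign among the 9 tested members and the 12 genes of the wider list that were refitted under them. Depth limits Has2 most, where 1 count in a library is 0.0559 to 0.0615 CPM.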
